A study of Drosophila melanogaster with 12 samples.

Results

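Glutamine and glutamate are joined by a small set of enzymes, and 3 of their transcripts, Gs1, Gs2 and Gdh, are described here in fed and starved Drosophila larvae with and without HNF4. The members were chosen by gene symbol, with earlier results of these data known. Each symbol had 1 probe set, so 3 of the 9669 probe sets of the main table, or 3 of its 7442 genes named by 1 symbol, are covered. Gs1 (CG2718, chromosome arm 2L, probe set 1632852_s_at) encodes the mitochondrial glutamine synthetase and Gs2 (CG1743, chromosome X, probe set 1630653_a_at) the cytosolic one. Gdh (CG5320, chromosome arm 3R, probe set 1640835_a_at) encodes the mitochondrial glutamate dehydrogenase. The glutamate dehydrogenase paralog bb8 is in the second table alone and stands with the other pathway genes.

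Glutamine synthetase joins ammonia to glutamate at the cost of ATP, which removes free ammonia and yields glutamine, the amide donor for nucleotides, amino sugars and asparagine. Glutamate dehydrogenase works next to it, as it releases ammonia from glutamate and passes the carbon on as 2-oxoglutarate to the tricarboxylic acid cycle. In insects amino acids are a fuel as well as a building material, and in the fly nervous system the cytosolic glutamine synthetase is known as a glial enzyme that recycles transmitter glutamate.

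Total RNA of whole larvae was hybridised to 12 Affymetrix Drosophila Genome arrays with 1 colour, in 4 groups of 3. The HNF4 mutant starved and HNF4 mutant fed groups carried the deletion alleles HNF4(del33) and HNF4(del17) in trans, and the labels call them null. The control starved and control fed groups carried precise excisions of the P-elements EP2449 and KG08976 in trans. Late L2 larvae were starved for 24 h on wet paper or stayed on normal food, and only larvae that looked healthy and had molted to L3 were taken, so starved animals that died or did not molt are not represented. All groups are labelled mid-L3. HNF4 is a nuclear receptor whose loss the series set against intact controls on both diets.

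The values are fluorescence intensities on a linear scale, normalized by the authors with dChip, and a floor of 16 was set before log2 was taken. Array medians lay between 483 and 552, the log2 values of replicates had correlations of 0.968 to 0.994, and the number of arrays limits the precision. Nothing in the labels says that replicates came from separate cultures, so p-values measure the spread between these samples. The 6 fed arrays were unlike each other in Lsp2. Lsp2, a storage protein that fat body makes late in larval life, had values of 13857, 328 and 780 in HNF4 mutant fed replicates 1, 2 and 3, against 18373, 16372 and 290 in control fed replicates 1, 2 and 3. All 6 starved arrays were low, at 287 to 374 in HNF4 mutant starved larvae and 328 to 370 in control starved larvae. Fbp2, another late fat body transcript, parted the same fed arrays in the series matrix, the second deposited table, with 8431, 10 and 131 in HNF4 mutant fed larvae and 8480, 8790 and 65.7 in control fed larvae. Fbp1, of the same marker list, did not part them. It read 4.3 to 14.7 over the 12 arrays of the series matrix, all under the floor of 16. For the members, comparisons that involve fed larvae were also fitted with the 3 fed arrays of high Lsp2 alone and with the 3 of low Lsp2 alone, a split made after the data were seen. Hnf4 itself was detected in the HNF4 mutant arrays, at 2784 to 3190 in HNF4 mutant starved larvae against 1736 to 1937 in control starved larvae, and the position of its probes against the deleted stretches was not examined here, so this reading checks no label. Gs1 lies on the same chromosome arm as Hnf4, with 1095 annotated protein-coding genes between them.

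In starved larvae both glutamine synthetase transcripts were lower in HNF4 mutants than in controls, and Gdh was not. Gs2 was reduced 2.44-fold and Gs1 1.88-fold, with no array of one genotype inside the range of the other. Such a lack of overlap was seen for 29.7% of all probe sets. The values of Gdh lay higher in the mutants by 1.14-fold, which did not pass the test.

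Gs2, the cytosolic synthetase, had values of 1915, 1793 and 1874 in HNF4 mutant starved larvae, against 4476, 4436 and 4732 in control starved larvae. The mutant values lie close together and below every one of the other 9 arrays. The mean was 1861 ± 61.7 (SD, n = 3) in HNF4 mutant starved and 4548 ± 161 in control starved larvae, a log2 difference of -1.29 ± 0.12 (SE, limma adjusted p = 8.28e-05). It ranked 42nd of 9669 probe sets by p-value and 73rd by the size of the fall. In the series matrix the mutant arrays read 2113, 1771 and 1954 and the controls 5230, 5128 and 5034, and the log2 difference was -1.40 (adjusted p = 0.000204).

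Gs1, the mitochondrial synthetase, had values of 3150, 3269 and 3184 in HNF4 mutant starved larvae, against 5773, 6181 and 6124 in control starved larvae. The 3 control starved arrays were the highest of all 12 arrays, and the 3 mutant starved arrays were closer together than those of any other group in the dChip table. The mean was 3201 ± 61.4 (SD, n = 3) in HNF4 mutant starved and 6026 ± 221 in control starved larvae, a log2 difference of -0.91 ± 0.15 (SE, limma adjusted p = 0.00383). By p-value it ranked 172nd, and by the size of the fall 173rd. The series matrix gave 3325, 2682 and 3123 in HNF4 mutant starved and 6640, 6580 and 6595 in control starved larvae, with a log2 difference of -1.12 (adjusted p = 0.0225).

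Over all probe sets 3.7% were called lower and 3.91% higher in this comparison, 7.61% in either direction, beside 2 lower and 0 higher among the 3 members. As the members were chosen with earlier results of these data known, this count is a description. Both synthetase calls held in all 23 alternatives, with limma adjusted p-values up to 0.000926 for Gs2 and 0.0225 for Gs1. Many of these, such as another floor or a fed array left out, leave the starved means as they are. The series matrix, quantile normalization, median centring and each starved array left out can move the difference. Over these it was -1.40 to -1.26 for Gs2 and -1.12 to -0.88 for Gs1. In RNA of whole larvae, fewer cells of a type and less RNA per cell cannot be told apart.

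Gdh had values of 18678, 21094 and 19784 in HNF4 mutant starved larvae, against 17634, 16939 and 17453 in control starved larvae. The groups did not overlap, as was the case for 29.7% of all probe sets. The log2 difference was 0.19 ± 0.077 (SE, limma adjusted p = 0.178), with a 95% interval of 0.024 to 0.36, and it was called in 0 of 23 alternatives. Gdh was the 117th brightest of the 9669 probe sets. In the series matrix it read 24085, 24356 and 23893 in HNF4 mutant starved and 22123, 18611 and 19309 in control starved larvae, again with no overlap.

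**Figure D1:**
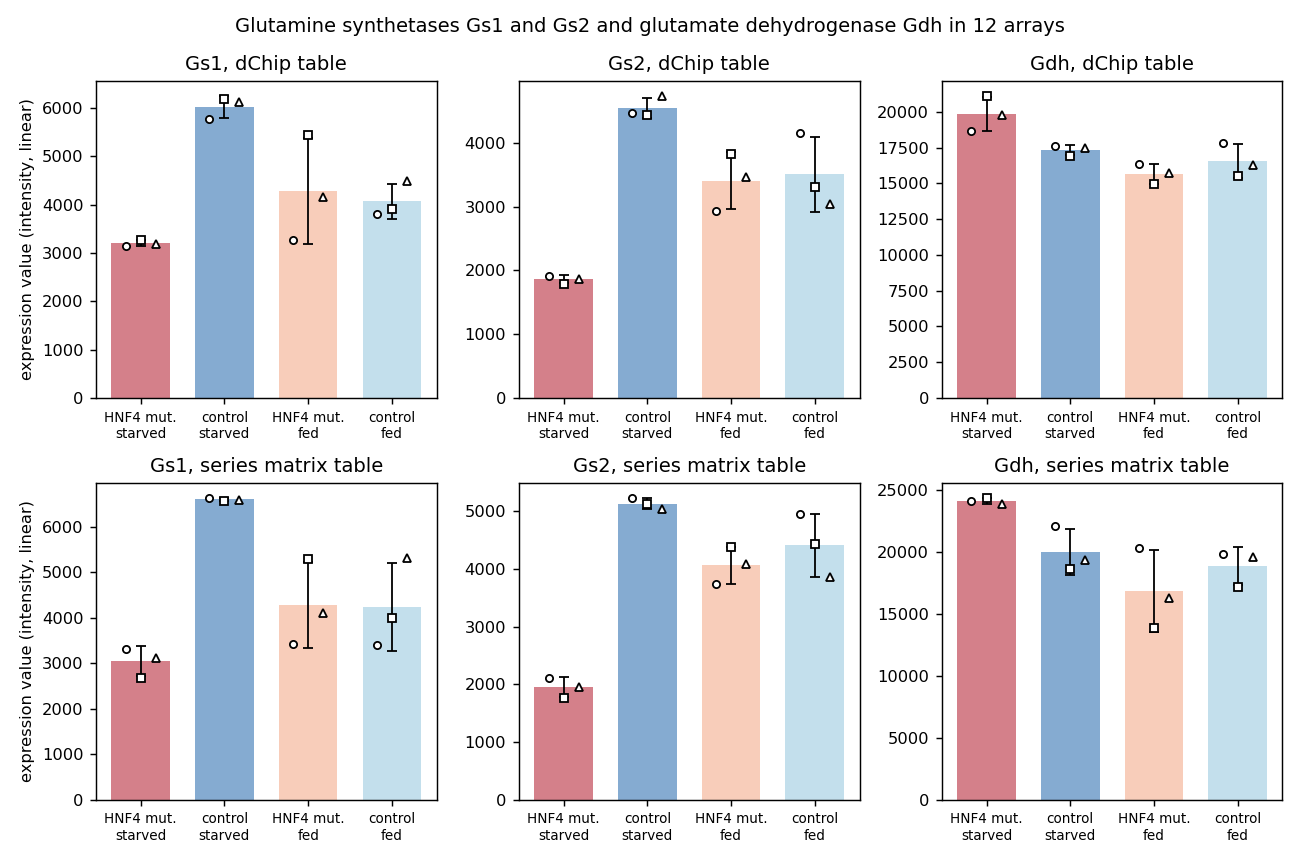
Expression values (linear intensity, y axis) of Gs1, Gs2 and Gdh in the dChip table (top) and the series matrix (bottom), with the mean (bar), SD (error bar) and the 3 arrays of each group (circle, square and triangle for replicates 1, 2 and 3). In both tables Gs1 and Gs2 are lowest in HNF4 mutant starved and highest in control starved larvae, while Gdh is highest in HNF4 mutant starved larvae.

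The same comparison in fed larvae showed no difference between genotypes that passed the test for any of the 3 members. Over all probe sets 1.05% were called in fed larvae. Gs2 read 2934, 3826 and 3459 in HNF4 mutant fed larvae, against 4158, 3312 and 3043 in control fed larvae. The ranges overlap (13.6% of all probe sets had none in this comparison), and the log2 difference was -0.037 ± 0.12 (SE, limma adjusted p = 0.930), with a 95% interval of -0.30 to 0.23. A fall of the size seen in starved larvae lies outside that interval. Gs1 read 3263, 5448 and 4152 in HNF4 mutant fed larvae, against 3814, 3902 and 4493 in control fed larvae. The mutant fed arrays span the whole control range, with a log2 difference of 0.048 ± 0.15 (adjusted p = 0.928, 95% interval -0.28 to 0.37). Gdh read 16378, 14960 and 15696 in HNF4 mutant fed larvae, against 17837, 15515 and 16310 in control fed larvae, a log2 difference of -0.077 ± 0.077 (adjusted p = 0.755, 95% interval -0.25 to 0.092).

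Among the fed arrays Gs1 was lower where Lsp2 was high. In the 3 fed arrays of high Lsp2 (HNF4 mutant fed replicate 1 and control fed replicates 1 and 2) Gs1 lay between 3263 and 3902. In the 3 of low Lsp2 (HNF4 mutant fed replicates 2 and 3 and control fed replicate 3) it lay between 4152 and 5448, above all 3 arrays of high Lsp2. The split was made after the data were seen, and the share of all probe sets that part in this way was not counted. In the series matrix the gap of Gs1 was narrow, from 4005 in control fed replicate 2 (high Lsp2) to 4098 in HNF4 mutant fed replicate 3 (low Lsp2). In the dChip table the ranges of Gs2 (2934 to 4158 at high and 3043 to 3826 at low Lsp2) and Gdh (15515 to 17837 and 14960 to 16310) overlapped. Within the high-Lsp2 arrays the log2 difference between HNF4 mutant fed and control fed larvae was -0.24 for Gs1 (limma adjusted p = 0.393) and -0.34 for Gs2 (0.398), and within the low-Lsp2 arrays 0.082 (0.890) and 0.26 (0.451). Each of these fits has 1 array in one of the arms, whose spread is taken to be that of the other groups. The part of the Lsp2 difference between fed arrays in the Gs1 values was not tested.

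**Figure D2:**
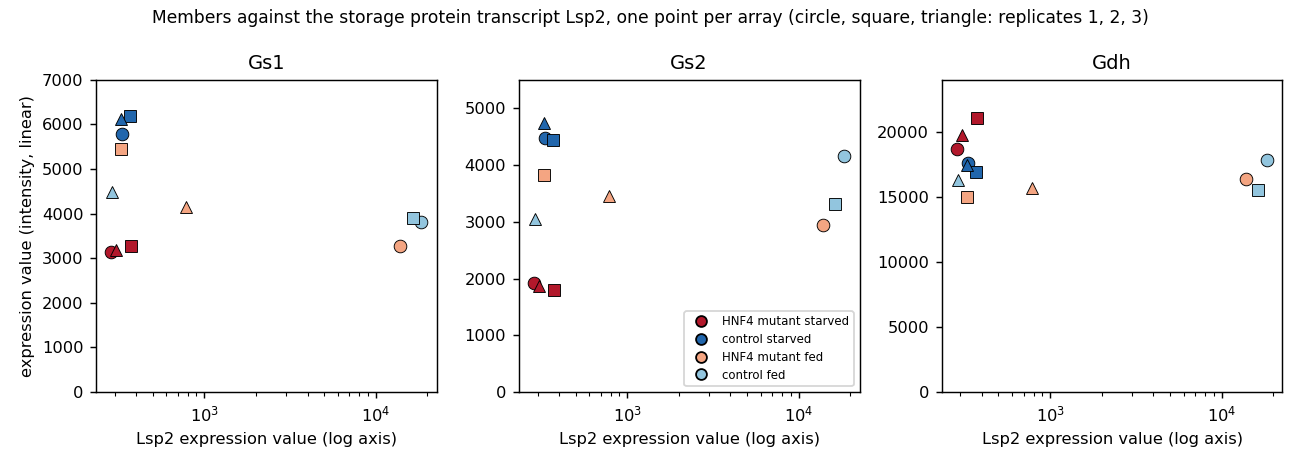
Expression value of Gs1, Gs2 and Gdh (y axis, linear intensity) against that of the storage protein transcript Lsp2 (x axis, log scale), 1 point per array of the dChip table. The fed arrays fall at both ends of the Lsp2 axis while all starved arrays lie at the low end, and HNF4 mutant starved and control starved larvae are far apart in Gs1 and Gs2 at the same Lsp2 level.

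With all 12 arrays of the dChip table, starvation moved the synthetase transcripts in opposite directions in HNF4 mutants and in controls. The calls of the Gs1 fall in mutants and of the Gs2 rise in controls were each lost in some alternatives. In HNF4 mutants Gs2 fell to a mean of 1861 ± 61.7 in starved larvae, against 3406 ± 448 in fed larvae (SD, n = 3 each), a log2 difference of -0.86 ± 0.12 (SE, limma adjusted p = 6.96e-05). In controls Gs2 rose to 4548 ± 161 in starved larvae, against 3504 ± 582.1 in fed larvae, by log2 0.39 ± 0.12 (adjusted p = 0.0148). Starved and fed ranges of Gs2 did not overlap in either genotype. With the fed arrays of high Lsp2 alone the differences were -0.66 in mutants (adjusted p = 0.00268) and 0.29 in controls (0.0352), and with those of low Lsp2 alone -0.97 (1.50e-05) and 0.58 (0.00130). The rise in controls was not called in the series matrix (log2 0.23, adjusted p = 0.150) or without control fed replicate 3 (0.29, adjusted p = 0.0559).

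Gs1 fell to 3201 ± 61.4 in starved HNF4 mutants, against 4288 ± 1099 in fed ones (SD, n = 3 each), by log2 -0.39 ± 0.15 (SE, limma adjusted p = 0.0319). The groups overlap, as HNF4 mutant fed replicate 1, at 3263, lies inside the starved range. Without HNF4 mutant fed replicate 2, at 5448, the log2 difference was -0.20 (adjusted p = 0.128), against the single mutant fed array of high Lsp2 it was -0.028 (adjusted p = 0.797), and against the 2 of low Lsp2 -0.57 (adjusted p = 0.00186). In controls Gs1 rose to 6026 ± 221 in starved larvae, against 4069 ± 369 in fed larvae, by log2 0.57 ± 0.15 (adjusted p = 0.00558). This call held in all 23 alternatives, of which many, such as those without a mutant array, cannot move the difference.

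Gdh rose to 19852 ± 1210 in starved HNF4 mutants, against 15678 ± 709 in fed ones (SD, n = 3 each), by log2 0.34 ± 0.077 (SE, limma adjusted p = 0.00204). The call was lost against the single mutant fed array of high Lsp2 (log2 0.28, adjusted p = 0.0619). In controls Gdh read 17342 ± 361 in starved and 16554 ± 1180 in fed larvae, a log2 difference of 0.069 ± 0.077 (adjusted p = 0.438, 95% interval -0.10 to 0.24). That difference was called under quantile normalization (0.26, adjusted p = 0.00735) and turned to -0.024 when each array was centred on its median, so no direction is given for it. Most of the array passed the test between diets: 75.7% of all probe sets were called in HNF4 mutants and 68.2% in controls, and 80.6% and 72.4% had no overlap between diets. The counts of 3 of 3 members in mutants and 2 of 3 in controls are to be read against those shares.

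The difference between the starvation responses, HNF4 mutant minus control, was tested directly as an interaction. It was -1.25 ± 0.17 on the log2 scale for Gs2 (SE, n = 3 per group, limma adjusted p = 0.00568) and -0.96 ± 0.21 for Gs1 (adjusted p = 0.0413). It was 0.27 ± 0.11 for Gdh, which did not pass (adjusted p = 0.230). Over all probe sets 2.59% were called, 0.765% with a negative difference like that of the synthetases. Gs2 ranked 24th of 9669 by p-value and was called in 21 of 22 alternatives, the exception being the fit with the high-Lsp2 fed arrays alone (log2 -0.95, adjusted p = 0.0569). Gs1 was called in 10 of the 22, and in the series matrix its difference of -1.14 had an adjusted p of 0.192. Leaving out 1 array moved the adjusted p of Gs1 between 0.0109 and 0.105 with no change of direction.

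**Figure D3:**
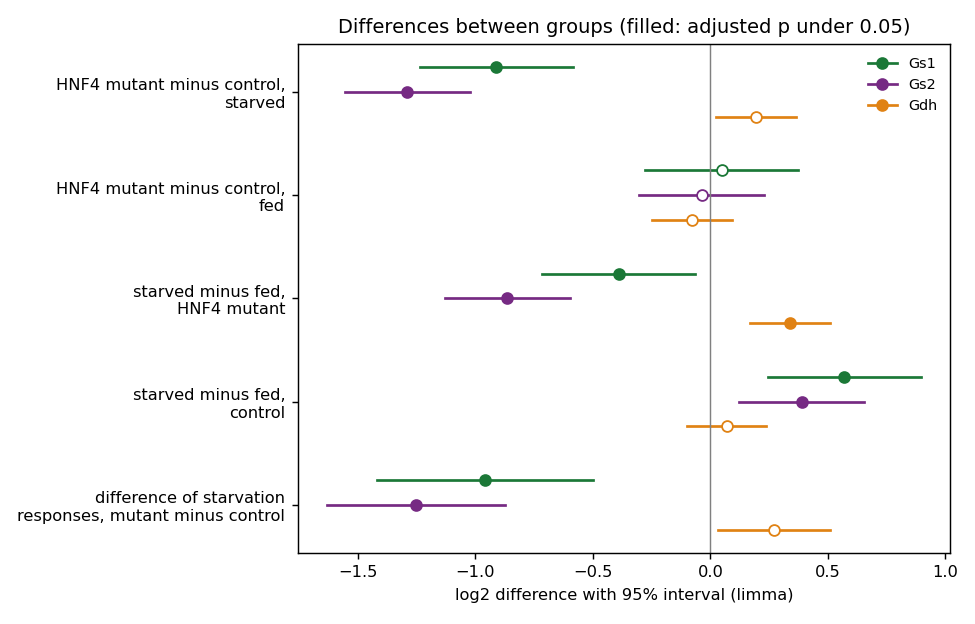
Log2 differences (points) with 95% intervals (lines) for Gs1, Gs2 and Gdh in 5 comparisons, filled where the limma adjusted p passed the threshold. The synthetase intervals lie below 0 in starved HNF4 mutants against controls and on opposite sides of 0 in the responses of the 2 genotypes to starvation.

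The order of the groups was the same in both tables for each member. Gs2 increased in the order HNF4 mutant starved (1861), HNF4 mutant fed (3406), control fed (3504) and control starved (4548), and only the fed neighbours overlapped. Gs1 increased in the order HNF4 mutant starved (3201), control fed (4069), HNF4 mutant fed (4288) and control starved (6026), and among neighbours only the fed groups overlapped, while HNF4 mutant fed replicate 1 also lay within the HNF4 mutant starved range. For Gdh the order was HNF4 mutant fed (15678), control fed (16554), control starved (17342) and HNF4 mutant starved (19852), where the 3 lower groups overlapped from neighbour to neighbour and HNF4 mutant starved larvae stood above them. In the dChip table the coefficient of variation of Gs1 was 1.92% in HNF4 mutant starved and 3.67% in control starved larvae, and 25.6% in HNF4 mutant fed and 9.08% in control fed larvae.

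The 2 synthetases were also set against each other within each array. The log2 ratio of Gs2 to Gs1 changed by -0.38 in HNF4 mutant starved against control starved larvae, and every mutant array lay below every control array. The exact permutation test over samples gave p = 0.1, two-sided, the smallest that 3 against 3 arrays allow. Between HNF4 mutant starved and HNF4 mutant fed larvae the ratio changed by -0.47 (exact p = 0.1), between control starved and control fed larvae by -0.18 (exact p = 0.5, -0.0066 without control fed replicate 1, -0.35 without control fed replicate 3 and -0.44 in the series matrix), and between HNF4 mutant fed and control fed larvae by -0.084 (exact p = 0.9). Over the 12 arrays log2 Gs1 and log2 Gs2 correlated at r = 0.840, and their deviations from the group means at 0.375, which is the likeness left once the group means are removed. Gdh correlated with Gs1 at -0.438 and with Gs2 at -0.619. These correlations are descriptions over arrays that share their groups.

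Among all genes named by 1 symbol, those with the highest Pearson correlation with each member over the 12 arrays were listed as a description. For Gs2 they were colt (r = 0.914), the mitochondrial carnitine/acylcarnitine carrier, the alkaline phosphatase genes Alp9 (0.908) and Alp10 (0.893), CG14958 (0.897) and CG2604 (0.891). Unlike Gs2, colt also had lower values in fed mutants, with a mean of 813 in HNF4 mutant starved, 3704 in control starved, 1776 in HNF4 mutant fed and 3132 in control fed larvae. Between fed mutants and fed controls CG2604 gave a log2 difference of -0.65, Alp9 -0.58, Alp10 -0.49 and CG14958 -0.10. Alp9 and Alp10 varied widely in control fed larvae (SD 1131 and 1091). For Gs1 they were SLC22A (0.906), a member of the organic cation transporter family, CG14958 (0.884), Gs2 (0.840), CG10814 (0.824) and CG3246 (0.816). SLC22A averaged 394 in HNF4 mutant starved, 590 in control starved, 451 in HNF4 mutant fed and 483 in control fed larvae, a narrower range than that of Gs1. Those of Gdh were the transcription factor gene Sox14 (0.964), the ariadne family gene ari-2 (0.963), CG1979 (0.941), CG14401 (0.929) and the sarcomere gene sals (0.929), each highest in HNF4 mutant starved larvae.

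**Figure D4:**
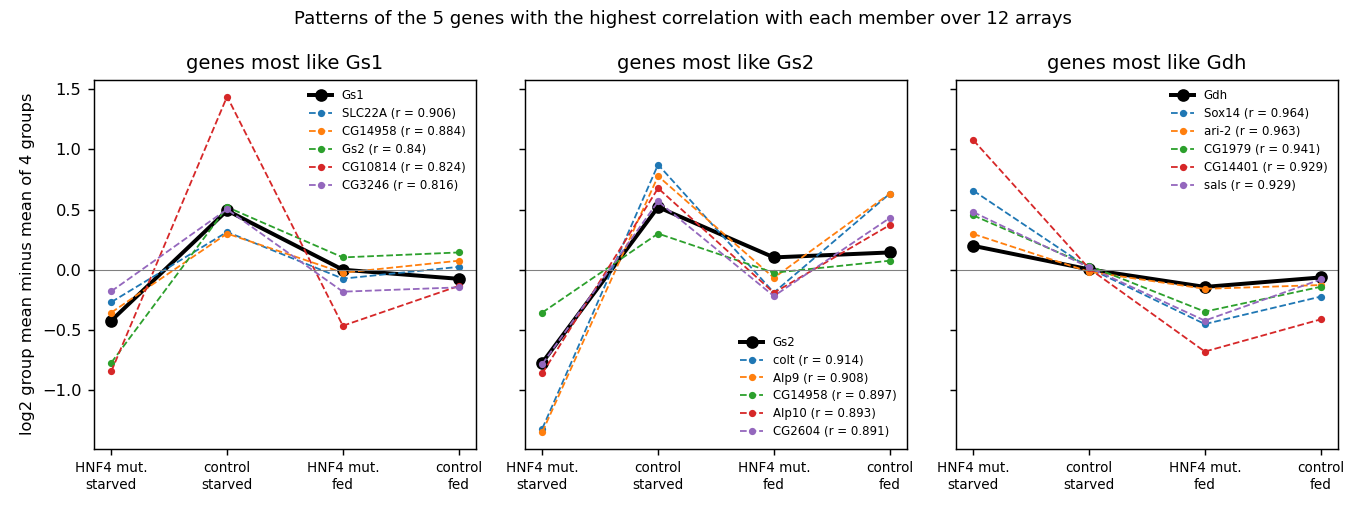
Log2 group means, each centred on its mean over the 4 groups (y axis), of Gs1, Gs2 and Gdh (black) and of the 5 genes with the highest correlation with each over the 12 arrays (dashed, with Pearson's r). The genes most like Gs1 and Gs2 peak in control starved larvae, and those most like Gdh in HNF4 mutant starved larvae.

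Other genes of glutamine and glutamate metabolism were taken from 7 lists with 40 genes, of which 31 were measured in the dChip table. In HNF4 mutant starved against control starved larvae 2 of the 31 rose and 0 fell, at a median log2 difference of -0.13 (all probe sets -0.012), and the share called (6.45%) was near the 7.61% of all probe sets. In fed larvae 0 of 31 passed. The count in starved larvae was 2 to 5 over the 23 alternatives, 5 among them without HNF4 mutant starved replicate 2. The 2 that rose were Pfas and Bcat. Pfas, a glutamine-using enzyme of purine synthesis, lay between 1678 and 2497 in HNF4 mutant starved and between 1128 and 1190 in control starved larvae (log2 0.88 ± 0.12 SE, n = 3 per group, limma adjusted p = 0.00161). Bcat, the branched-chain aminotransferase, which passes amino groups to 2-oxoglutarate to give glutamate, lay between 3984 and 5616 in HNF4 mutant starved and between 2314 and 3137 in control starved larvae (log2 0.83 ± 0.13, adjusted p = 0.00365). Both held in all 23 alternatives, though many of these leave the starved means as they are. Their starvation responses also differed between genotypes, by log2 0.86 ± 0.17 for Pfas (adjusted p = 0.0328) and 0.93 ± 0.19 for Bcat (adjusted p = 0.0327), but in the series matrix neither was called (0.94, adjusted p = 0.251, and 0.84, adjusted p = 0.302), and Pfas was called in 10 and Bcat in 9 of 22 alternatives.

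Prat2, which takes the amide of glutamine in the first step of purine synthesis, varied widely, from 740 to 1612 in HNF4 mutant starved and from 358 to 686 in control starved larvae (log2 1.15 ± 0.44, limma adjusted p = 0.161), and did not pass. CG11899, of the transaminase list, gave log2 -0.68 ± 0.19 (adjusted p = 0.0599) and P5CS, which starts proline synthesis from glutamate, -0.35 ± 0.098 (adjusted p = 0.0540), and neither passed.

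In the comparison of starved with fed larvae 8 of the 31 rose and 13 fell in HNF4 mutants, and 10 rose and 12 fell in controls. These shares, 67.7% and 71.0%, are near those of all probe sets. Of the 10 enzymes that use the amide of glutamine 3 rose and 3 fell in mutants, and 2 rose and 2 fell in controls. Asparagine synthetase (AsnS) fell in both genotypes, to a mean of 411 ± 123.1 in HNF4 mutant starved, against 1234 ± 142 in HNF4 mutant fed larvae (SD, n = 3 each, log2 -1.62 ± 0.19 SE, limma adjusted p = 1.71e-05). In control starved larvae AsnS averaged 318 ± 46.9, against 1709 ± 208 in control fed larvae (-2.43 ± 0.19, adjusted p = 1.71e-06). In HNF4 mutants Prat2 rose by log2 2.25 ± 0.44 (1.32 against the mutant fed array of high Lsp2 alone), Bcat by 1.59 ± 0.13 and Pfas by 1.55 ± 0.12.

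Genes around glutamate went both ways with starvation. Their counts are to be read against the 75.7% of all probe sets called in mutants and 68.2% in controls. Of the 6 proline genes 4 fell in HNF4 mutants and 4 fell in controls, with 0 and 1 higher, and P5cr, which makes proline from pyrroline-5-carboxylate, fell by 1.40 on the log2 scale in mutants (SE 0.24), and gave -0.90 in the series matrix. Of the 4 glutamate transporters 3 fell and 1 rose in each genotype, and aralar1, the mitochondrial aspartate/glutamate carrier, changed by log2 -1.26 ± 0.12 in mutants and -1.29 ± 0.12 in controls. The cystine/glutamate exchanger family gene gb (genderblind) changed by -0.85 ± 0.099 in controls. Of 5 glutathione genes 2 were measured in the dChip table, and both rose in each genotype, for example Ggt-1, a gamma-glutamyl transpeptidase, by 0.78 ± 0.14 in controls. Gclm, of the same list, was in the series matrix alone and did not share this rise. Its mean there was 98.2 in HNF4 mutant starved and 222 in HNF4 mutant fed larvae. In controls the mean of Gclm was 132 in starved and 127 in fed larvae. Glutamate decarboxylase (Gad1), which makes GABA, rose by 1.09 ± 0.17 in controls, while the other 2 of the 3 measured GABA genes fell there. CG11899 rose by 0.96 ± 0.19 in controls, and by 0.50 against the control fed array of low Lsp2 alone. Its value in mutants was -0.0054 ± 0.19, and the difference between the responses, -0.96 ± 0.28, did not pass (limma adjusted p = 0.0930). Of the 6 transaminases 1 rose and 1 fell in mutants and 3 rose and 1 fell in controls.

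**Figure D5:**
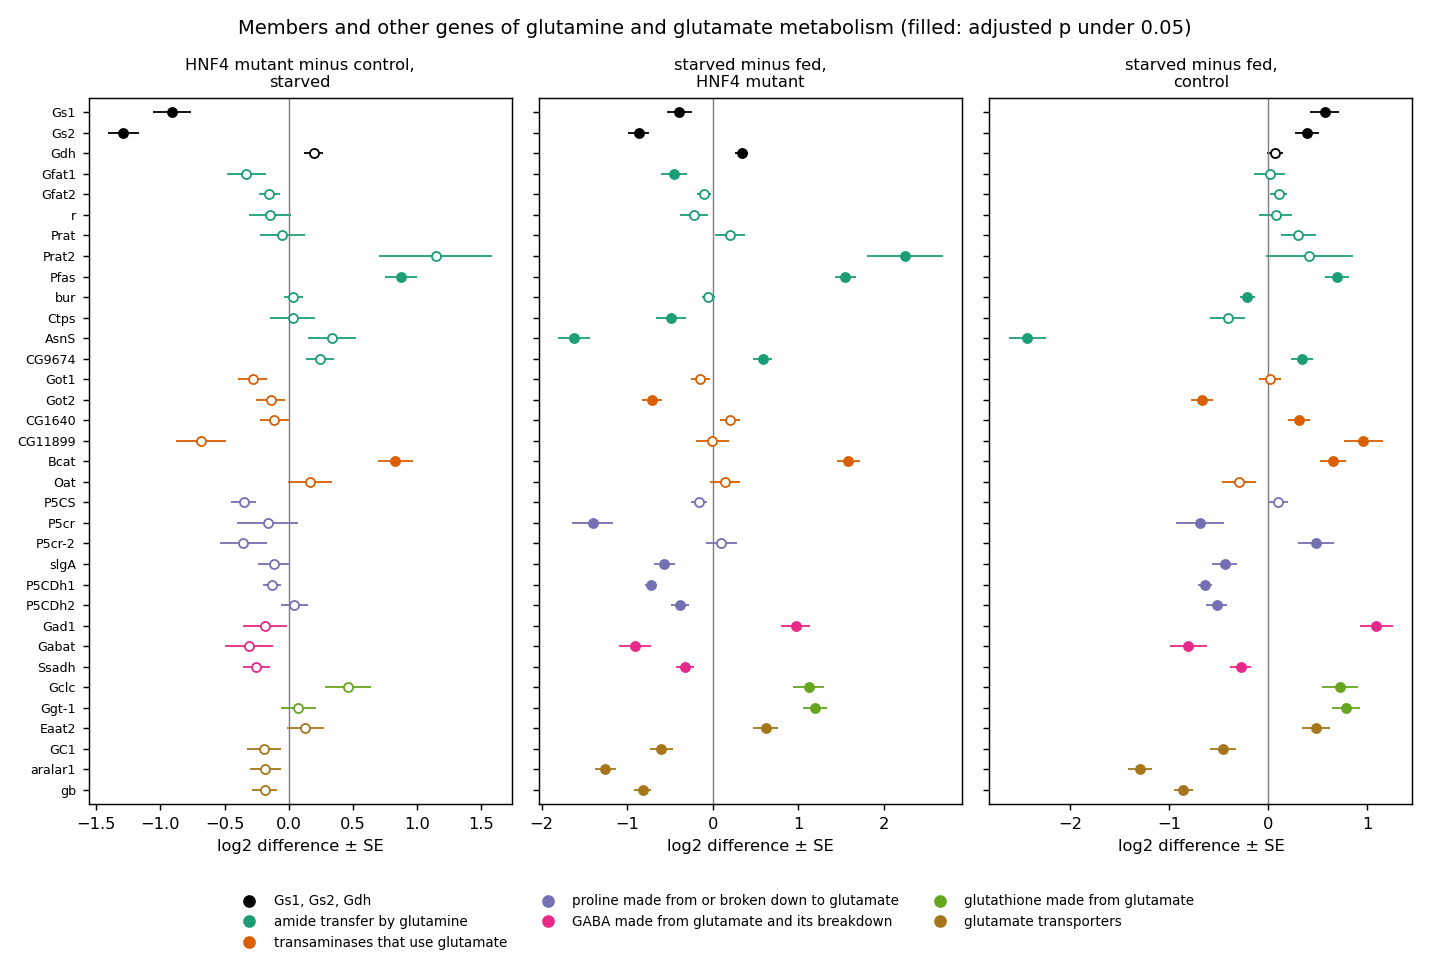
Log2 differences ± SE (x axis) of Gs1, Gs2, Gdh and 31 other genes of glutamine and glutamate metabolism (rows, coloured by list) in 3 comparisons, filled where the limma adjusted p passed the threshold. Among starved larvae Gs1 and Gs2 are the called falls of HNF4 mutants against controls, and Pfas and Bcat the called rises.

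No probe set is listed for b or Eaat1. In the series matrix bb8, known in Drosophila from the testis, read 55.3 to 243 over the 12 arrays. The mitochondrial glutamate carrier gene GC2 read 3.1 to 23.9 there, with every group mean below the floor of 16.

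Markers of glia, muscle and fat body were set beside the synthetases. Of 6 glia markers 3 were measured in the dChip table (moody, Gat and nrv2), and their summed values ranged from 2205 to 2473 in HNF4 mutant starved and from 2206 to 2452 in control starved larvae. In fed larvae the sums were 1787 to 1904 in HNF4 mutants and 1726 to 2002 in controls, below the starved arrays of both genotypes. Between genotypes 0 of the 3 passed in either diet. Over all probe sets 7.61% were called in starved and 1.05% in fed larvae, so 0 of 3 is near those shares. With starvation moody passed in both genotypes, by log2 0.72 ± 0.11 in mutants and 0.48 ± 0.11 in controls, while Gat and nrv2 did not. The shares of all probe sets there were 75.7% and 68.2%. The other glia markers, repo, wrapper and gcm, were in the series matrix alone, where repo, the defining marker, read 98.0 to 217.5 over the 12 arrays. The mean of repo was 171.5 in HNF4 mutant starved, 170.6 in control starved, 105.6 in HNF4 mutant fed and 151.4 in control fed larvae. For these groups in the same order wrapper averaged 38.9, 44.2, 38.4 and 40.6, and gcm 24.8, 44.4, 10.3 and 15.0. Single arrays of gcm read 3.9 to 55.4, and both of its fed means lay under the floor of 16. Of 6 muscle markers 3 were measured (Tm2, up and Mlc2), with sums of 31341 to 33968 in HNF4 mutant starved and 31885 to 32611 in control starved larvae. Between genotypes 0 of 3 passed, again near the shares of all probe sets. Mlc2 gave log2 -0.42 ± 0.12 in starved larvae (limma adjusted p = 0.0532). Muscle sums were 30446 to 33837 in HNF4 mutant fed and 29486 to 34411 in control fed larvae, and with starvation Mlc2 gave -0.53 ± 0.12 in mutants (adjusted p = 0.00171) and -0.096 ± 0.12 in controls (adjusted p = 0.478), with the difference between these not passing (adjusted p = 0.2004). Of 6 fat body markers only Lsp2 was measured in the dChip table, near its lowest values in all starved arrays of both genotypes. The part of tissue composition in the synthetase differences was not tested.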

How the data were processed

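Intensity values of 12 arrays were read from 2 deposited tables. In the first, linear intensity was put through dChip normalization by the authors and only Present probe sets were kept, per the file headers, with no version or Present rule given in the sources used here. The second, the series matrix, holds deposited processed intensity whose computation is not stated (18769 probe sets without 183 controls). dChip columns were matched to samples by genotype, diet and replicate in their names, and all 12 correlated best with their own sample in the other table. Names came from the platform's annotation, brought up to date with RefSeq gene numbers: 7970 had 1 symbol, 248 several and 1451 none.

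Values were floored at 16, taken to log2 and fitted with limma 3.58.1 in R 4.3.3 (1 mean per group, 12 arrays, 8 residual degrees of freedom). P-values were adjusted by Benjamini-Hochberg over all 9669 probe sets within each of 5 contrasts, threshold 0.05. The code was tested on simulated data.

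The members and lists were chosen with earlier results of these data known. List genes were matched by symbol, or by CG number for 3; for 2 the CG number written pointed to another gene and the symbol was used. A gene was represented by its brightest probe set. Named were the members, Hnf4, list genes called between genotypes or in the difference of responses, the 3 largest called list genes per direction with starvation, and the 5 genes most correlated with each member. Other list genes named were chosen after their values were seen. Alternatives were a floor of 1 or of 64, the series matrix, centring on the median or quantile normalization, removal of the dimmest 40% of probe sets, the replicate number as a block, the compared groups alone, eBayes with trend and robust, and each array left out. The split by Lsp2 was added after seeing the data. No nucleotide or protein sequences were used here, and 1 gene of the lists is not reported here.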

Additional observations from a re-analysis of the deposited data

Results flagged for a closer look

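The response to starvation differed between genotypes by the interaction test for 2 members and 2 other genes of the pathway lists. The difference, HNF4 mutant minus control, was -0.96 on the log2 scale for Gs1 and -1.25 for Gs2, where starved HNF4 mutants were lower and starved controls higher than their fed groups. It was 0.93 for Bcat and 0.86 for Pfas, which rose in both genotypes and further in HNF4 mutants. The limma adjusted p was 0.0413 for Gs1, 0.00568 for Gs2, 0.0327 for Bcat and 0.0328 for Pfas. Over all probe sets 2.59% were called in this test. Of 22 alternatives Gs2 was called in 21, Gs1 and Pfas in 10 each and Bcat in 9. In the series matrix Gs1, Bcat and Pfas were not called. The part of the Lsp2 difference between fed arrays was not tested.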

How the results depend on the processing

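The genotype difference in starved larvae kept its direction and call in all 23 alternatives for Gs1 (log2 -1.12 to -0.88) and Gs2 (-1.40 to -1.26). Many of the 23, such as another floor or a fed array left out, cannot move this difference. In fed larvae, where no member was called, Gs1 turned to -0.24 with the high-Lsp2 fed arrays alone, and Gs2 to 0.0020 with median centring and 0.26 with the low-Lsp2 arrays alone. Leaving out 1 array gave -0.14 to 0.23 for Gs1, -0.13 to 0.093 for Gs2 and -0.25 to 0.090 for Gs2 minus Gs1. For starved against fed HNF4 mutants, the Gs1 call was lost in the series matrix (-0.47), with the compared groups alone (-0.39), with the high-Lsp2 array (-0.028) and without HNF4 mutant fed replicate 2 or 3 or any of the 3 HNF4 mutant starved arrays (-0.57 to -0.20 over all arrays left out). The Gdh call was lost with the high-Lsp2 array (0.28). In controls, the Gs2 call was lost in the series matrix (0.23) and without control fed replicate 3 (0.29, the lowest of 0.29 to 0.52), and Gdh gave 0.26 with quantile normalization and -0.024 with median centring. The difference of responses lost its Gs1 call in the series matrix (-1.14), with the low-Lsp2 (-0.99) or high-Lsp2 (-0.67) arrays alone and without each array but HNF4 mutant fed replicates 1 and 2, HNF4 mutant starved replicate 2 and control fed replicate 3 (-1.14 to -0.77 over all), and its Gs2 call with the high-Lsp2 arrays (-0.95).

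Counts of called probe sets between genotypes in fed larvae were 102, but 63 in the series matrix, 41 with the compared groups alone, 34 with the low-Lsp2 arrays and 47 to 272 with 1 array left out, past 1.5 times either way without control fed replicate 2 or 3 or any HNF4 mutant fed array. In starved larvae 736 were called, 376 in the series matrix and 329 to 940 with 1 array left out, with the low counts without replicate 1 or 3 of either genotype. Without the dimmest 40%, where fewer were tested, diet calls numbered 4463 in mutants (7322 with all) and 4130 in controls (6594 with all). The difference of responses gave 250 calls, 26 in the series matrix, 65 and 48 with the low-Lsp2 and high-Lsp2 arrays, and 81 to 549 with 1 array left out, past 1.5 times either way for each array but control starved replicate 2. Pathway genes called numbered 2 to 5 between genotypes in starved larvae and 0 to 3 in the difference of responses.

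The replicate numbers are shared between groups but did not pair the samples: 5 of 18 same-numbered pairs of arrays correlated over 0.1 in their deviations (range -0.396 to 0.283). With the replicate number as a block the difference of responses had 132 calls, and Gs1 kept -0.96 with a limma adjusted p of 0.0510; no other member call changed. Leaving out 1 array leaves 2 in its group. In the Lsp2 splits the lone fed array of a genotype is assumed to vary like the other groups. The causes of these changes were not tested.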
